A study of Mus musculus with 10 samples.

Results

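The genes described here are 10 markers of radial glia and neural progenitors: Fabp7, Nes, Slc1a3, Ptprz1, Tnc, Bcan, Prom1, Msi1, Adgrg1 and Gpm6a. They were given as a list of gene names, were taken from the series' table of array values, and make up 10 of the 19938 genes in it. The list was chosen with earlier results of these data known. Each is measured by 1 probe set, so no choice between probe sets was needed. All 10 were tested, with no filter on low values. They are described over 10 Affymetrix arrays of mouse cultures, 2 in each of 5 groups, which the labels call biological replicates.

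The mESC group is R1, a single embryonic stem (ES) cell line of 129/Sv origin, grown in 15% serum with leukaemia inhibitory factor (Lif) at 1000 U/ml on mitomycin C-inactivated embryonic fibroblasts. The p-NSC_L group holds primitive neural stem cells, the primary passage of R1 cells as floating spheres in serum-free N2 medium with Lif at 1000 U/ml. The p-NSC_LF group is their secondary passage, with Lif at 1000 U/ml, FGF at 10 ng/ml and heparin at 2 µg/ml. The d-NSC group holds definitive neural stem cells passaged from these into N2 and B27 medium, without stated Lif, with EGF and FGF each at 20 ng/ml and heparin at 2 µg/ml. The CNS-NSC group was grown from the frontal forebrain of wild-type ICR embryos at E11.5, in N2 medium with EGF and FGF each at 20 ng/ml and heparin at 2 µg/ml. Embryonic brain origin, mouse strain and the B27 supplement thus cannot be told apart in any comparison of CNS-NSC with d-NSC. Transfer of fibroblasts into the mESC samples was possible, and d-NSC came from 1 parent line.

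Radial glia are the bipolar progenitors of the embryonic nervous system, which divide at the ventricle, give rise to neurons and glia, and guide migrating neurons along their fibres. They derive from an earlier neuroepithelium and share many genes with astrocytes and with neural stem cells kept in FGF and EGF. None of the 10 genes is restricted to them: Bcan, Tnc and Ptprz1 are also abundant in glial precursors, and Prom1 in several epithelia. In bulk cultures, fewer cells of a type and less RNA per cell cannot be told apart.

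Levels are log2 array intensities, so a difference of 1 is a 2-fold change. Differences carry the standard error (SE) of a limma model with 1 mean per group over all 10 arrays, and each p-value was adjusted over the 19938 genes (Benjamini-Hochberg). A difference was called at an adjusted p under 0.05. Array medians lay between 7.66 and 7.76, and the lower quartile of all probe sets lay between 6.39 and 6.49 on each array, which marks the dim end of the scale. The CNS-NSC and p-NSC_L replicates were the least alike, with 277 and 167 genes at least 2-fold apart, against 1 gene between the d-NSC replicates. The probe sets have no length correction, so levels are compared between groups and not between genes.

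The promoters of 4 members are shown because these genes take up different patterns below: Fabp7 and Gpm6a rose most on the way to d-NSC, Tnc rose modestly, and Bcan was not called. Windows are the 250 bases before a RefSeq start site, on the gene's strand, from RefSeq for GRCm38.p6, and capitals mark matches to 4 motifs of factors that act in neural progenitors. The Fabp7 window is chr10:57784673-57784922 on the plus strand, and the Gpm6a window is chr8:54779184-54779433 on the plus strand. The Tnc window, before the upstream of its start sites, is chr4:64047016-64047265 on the minus strand, and the Bcan window is chr3:88000357-88000606 on the minus strand.
Fabp7: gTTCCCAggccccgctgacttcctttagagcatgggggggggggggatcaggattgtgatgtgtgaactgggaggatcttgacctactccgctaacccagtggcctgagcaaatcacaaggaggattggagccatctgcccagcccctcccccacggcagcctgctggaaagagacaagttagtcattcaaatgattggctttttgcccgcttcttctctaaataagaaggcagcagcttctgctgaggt
Gpm6a: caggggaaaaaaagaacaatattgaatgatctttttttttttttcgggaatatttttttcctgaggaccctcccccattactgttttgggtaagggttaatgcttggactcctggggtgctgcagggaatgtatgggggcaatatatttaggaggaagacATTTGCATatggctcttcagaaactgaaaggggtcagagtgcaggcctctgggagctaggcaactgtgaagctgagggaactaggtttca
Tnc: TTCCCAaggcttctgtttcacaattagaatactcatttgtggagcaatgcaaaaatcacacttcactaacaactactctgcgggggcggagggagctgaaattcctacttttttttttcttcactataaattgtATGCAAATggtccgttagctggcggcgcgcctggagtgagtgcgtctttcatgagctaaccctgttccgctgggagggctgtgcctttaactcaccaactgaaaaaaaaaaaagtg
Bcan: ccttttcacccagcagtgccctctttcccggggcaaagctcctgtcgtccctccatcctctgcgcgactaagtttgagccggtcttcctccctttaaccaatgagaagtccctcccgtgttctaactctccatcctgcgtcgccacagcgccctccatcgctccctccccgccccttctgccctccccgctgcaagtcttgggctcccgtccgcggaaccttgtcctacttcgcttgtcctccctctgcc
The motifs, searched on both strands, were a SOX core (ACAAAG or ACAATG), the POU octamer (ATGCAAAT), an RBPJ core (TGGGAA) and a neural E-box (CAGCTG). The octamer was in 1.6% of 32851 promoters of this length and in 3 of 13 member windows. Those came from 2 of the 9 members with an entry, Tnc and Gpm6a. In Tnc its first base was at -116 in the window shown, and the same site lies in both overlapping Tnc windows. In Gpm6a it was at -90 on the other strand, where it reads ATTTGCAT. The RBPJ core was in 21.6% of promoters and in 4 of 13 member windows, from 3 members, Fabp7, Tnc and Prom1. The SOX core was in 25.2% of promoters and in 1 of 13 member windows, of Adgrg1, at -80. The E-box was in 13.0% of promoters and in 0 of 13 member windows. No match overlapped another in the same window. These are matches of letters in 13 windows and carry no information on binding. Msi1 is named only.

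Across the culture steps the members were low or moderate in mESC and in both primitive cultures, and at the step to d-NSC 9 of 10 rose, where 38.6% of all genes were called and 19.3% called higher. Ptprz1 also rose at the step before, by 1.66 to p-NSC_LF from a dim p-NSC_L mean of 6.36, beside 1.12 to d-NSC. Compared with embryonic brain cells, d-NSC had less of 8 members and more of 2, where 34.0% of all genes were called. For Bcan, Tnc, Ptprz1, Slc1a3, Adgrg1 and Prom1 that gap was larger in size than any single step within the ES-derived cultures. The excess was smallest for Slc1a3 (-1.84 against a step of 1.61), Adgrg1 (-1.58 against 1.16) and Prom1 (2.00 against 1.20). For Prom1 the CNS-NSC replicates lay far apart, at 8.15 and 6.94. Sizes of gaps and steps were not tested against each other. Bcan was the member not called at the step to d-NSC, and Prom1 and Msi1 were the members higher in d-NSC than in CNS-NSC.

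**Figure D1:**
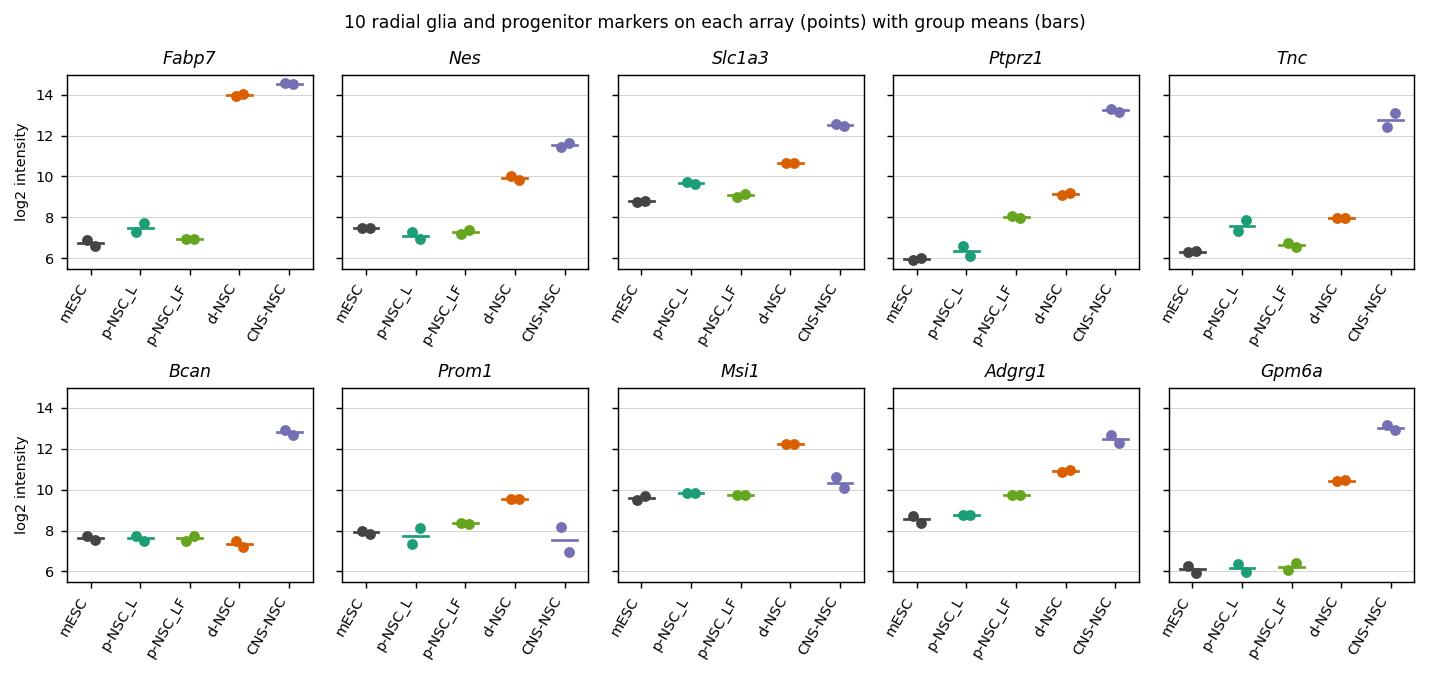
Levels of the 10 members (log2 array intensity, vertical axis) in mESC, p-NSC_L, p-NSC_LF, d-NSC and CNS-NSC, with 1 point per array and a bar at each group's mean. Fabp7 sits between 6.61 and 7.72 in the first 3 groups and between 13.95 and 14.55 in d-NSC and CNS-NSC, while Bcan is high in CNS-NSC only, at 12.67 and 12.95.

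Fabp7 encodes the brain fatty acid binding protein, a cytoplasmic lipid carrier and a classical radial glia marker. Its levels were 6.90 and 6.61 in mESC, 7.26 and 7.72 in p-NSC_L, 6.93 and 6.96 in p-NSC_LF, 13.95 and 14.02 in d-NSC, and 14.55 and 14.50 in CNS-NSC. The d-NSC and CNS-NSC arrays stood far above the other 6, and no group overlapped another. The rise from p-NSC_LF to d-NSC, 7.04 ± 0.15 (132-fold, adjusted p = 1.3e-08), ranked 1 of 19938 genes, and that from mESC to CNS-NSC, 7.77 ± 0.15, did so too. Fabp7 was also higher in p-NSC_L than in mESC by 0.74 ± 0.15 (adjusted p = 0.011), a call lost without mESC replicate 2 (adjusted p = 0.099) and in 2 other settings. It was lower in d-NSC than in CNS-NSC by -0.54 ± 0.15 (adjusted p = 0.019), which was lost on leaving out any 1 of the 4 arrays compared (adjusted p 0.05 to 0.11) and after quantile normalization, where the difference was -0.41 (adjusted p = 0.098). Between p-NSC_LF and p-NSC_L the difference was -0.55 ± 0.15 (adjusted p = 0.12), and it passed the threshold without p-NSC_L replicate 1 (adjusted p = 0.028).

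Nes encodes nestin, an intermediate filament protein of dividing neural progenitors. It measured 7.48 and 7.47 in mESC, 7.26 and 6.94 in p-NSC_L, 7.17 and 7.38 in p-NSC_LF, 10.04 and 9.84 in d-NSC, and 11.42 and 11.63 in CNS-NSC. The first 3 groups lay between 6.94 and 7.48, and d-NSC and CNS-NSC were apart from that range and from each other. Within it the p-NSC_L and p-NSC_LF arrays overlapped, and both mESC arrays lay just above them. Nes rose by 2.66 ± 0.14 to d-NSC (6.34-fold, adjusted p = 3.6e-07) and stayed below CNS-NSC by -1.58 ± 0.14 (adjusted p = 1.4e-05). The difference between p-NSC_L and mESC, -0.37 ± 0.14, was not called (adjusted p = 0.12), but was without p-NSC_L replicate 1 (adjusted p = 0.049).

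Slc1a3 encodes GLAST, the glutamate transporter of radial glia and astrocytes. It was already well above the dim end in mESC, at 8.77 and 8.80, and measured 9.74 and 9.62 in p-NSC_L, 9.01 and 9.12 in p-NSC_LF, 10.67 and 10.67 in d-NSC, and 12.55 and 12.48 in CNS-NSC. No group overlapped another. It rose by 0.90 ± 0.10 in p-NSC_L against mESC (adjusted p = 4.3e-04), fell by 0.61 ± 0.10 in p-NSC_LF (adjusted p = 0.016), and rose by 1.61 ± 0.10 in d-NSC (adjusted p = 9.5e-07). The fall in p-NSC_LF was not called without p-NSC_LF replicate 1 (adjusted p = 0.19), without replicate 2 (adjusted p = 0.1), or with only these 2 groups in the fit (adjusted p = 0.12). In d-NSC it was 3.57-fold below CNS-NSC (-1.84 ± 0.10, adjusted p = 3.8e-07).

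Ptprz1 is a receptor tyrosine phosphatase with a chondroitin sulphate-bearing form, which binds pleiotrophin, contactin-1 and tenascins. It started at the dim end, with group means under the lower quartile of probe sets in mESC and p-NSC_L, so differences from those groups are measured from a dim level. Levels were 5.92 and 6.01 in mESC, 6.60 and 6.11 in p-NSC_L, 8.05 and 7.99 in p-NSC_LF, 9.10 and 9.18 in d-NSC, and 13.29 and 13.17 in CNS-NSC. The groups did not overlap, although the step from mESC to p-NSC_L, 0.39 ± 0.15, was not called (adjusted p = 0.12) unless p-NSC_L replicate 2 was left out (0.63, adjusted p = 0.0075). It was the only member called in both the p-NSC_LF and d-NSC steps with no call lost in any setting, at 1.66 ± 0.15 (3.17-fold, adjusted p = 8.3e-04) and 1.12 ± 0.15 (2.17-fold, adjusted p = 1.7e-04). The gap to CNS-NSC was larger than both steps together, at -4.09 ± 0.15 (17.0-fold, adjusted p = 3.0e-08), the 19th lowest value of all genes.

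Tnc encodes tenascin C, a glycoprotein of the progenitor matrix. It measured 6.29 and 6.35 in mESC, 7.34 and 7.86 in p-NSC_L, 6.76 and 6.54 in p-NSC_LF, 7.98 and 7.98 in d-NSC, and 12.42 and 13.12 in CNS-NSC. The p-NSC_L arrays lay above those of p-NSC_LF, and the d-NSC arrays only just above p-NSC_L. Tnc rose in p-NSC_L against mESC by 1.27 ± 0.22 (adjusted p = 0.0048, or 0.066 with an unmoderated test, which uses each gene's own spread alone), and from p-NSC_LF to d-NSC by 1.33 ± 0.22 (adjusted p = 8.2e-04). Between p-NSC_LF and p-NSC_L it differed by -0.95 ± 0.22 (adjusted p = 0.069, or 0.048 without p-NSC_L replicate 1). Against p-NSC_L, d-NSC differed by 0.39 (adjusted p = 0.21). In CNS-NSC it was 27.7-fold above d-NSC (-4.79 ± 0.22, adjusted p = 1.4e-07).

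Bcan encodes brevican, a brain proteoglycan that binds hyaluronan and tenascins. It measured 7.76 and 7.56 in mESC, 7.73 and 7.50 in p-NSC_L, 7.50 and 7.75 in p-NSC_LF, 7.51 and 7.21 in d-NSC, and 12.95 and 12.67 in CNS-NSC. The 8 ES-derived arrays lay between 7.21 and 7.76, more than 4 log2 units below the brain-derived cells. Within that range both d-NSC arrays were below both mESC arrays, a difference of -0.30 ± 0.16 that was not called (adjusted p = 0.17). The step to d-NSC gave -0.26 ± 0.16 (adjusted p = 0.23), and the difference between d-NSC and CNS-NSC, -5.45 ± 0.16 (43.6-fold, adjusted p = 9.4e-09), was the 4th lowest of all genes.

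Prom1 encodes prominin-1 (CD133), a membrane protein of apical protrusions. It measured 7.99 and 7.84 in mESC, 7.34 and 8.13 in p-NSC_L, 8.38 and 8.32 in p-NSC_LF, 9.53 and 9.57 in d-NSC, and 8.15 and 6.94 in CNS-NSC. The d-NSC arrays were the highest, and the CNS-NSC replicates lay far apart, on either side of mESC. Prom1 was higher in d-NSC than in p-NSC_LF by 1.20 ± 0.34 (adjusted p = 0.018) and than in CNS-NSC by 2.00 ± 0.34 (adjusted p = 0.0011). The first call was lost without any 1 of the 4 arrays compared (adjusted p 0.066 to 0.082) and with an unmoderated test (adjusted p = 0.11). A fit of only these 2 groups gave an adjusted p of 1.3e-05. The SE of 0.34 draws on the spread in all 5 groups. Standard deviations were 0.03 in d-NSC and 0.04 in p-NSC_LF, against 0.10 in mESC, 0.56 in p-NSC_L and 0.86 in CNS-NSC. Against mESC, CNS-NSC differed by -0.37 ± 0.34 (adjusted p = 0.43), by -0.97 (adjusted p = 0.014) without CNS-NSC replicate 1, and by 0.24 (adjusted p = 0.52) without replicate 2, so its direction rests on single libraries.

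Adgrg1 (GPR56) is an adhesion G protein-coupled receptor of radial glial endfeet, for which collagen III and transglutaminase 2 are known ligands. It measured 8.71 and 8.39 in mESC, 8.77 and 8.76 in p-NSC_L, 9.76 and 9.73 in p-NSC_LF, 10.86 and 10.94 in d-NSC, and 12.67 and 12.29 in CNS-NSC. Each group lay above the one before. The step to p-NSC_LF was 0.98 ± 0.14 (adjusted p = 0.0099). This call was lost without p-NSC_LF replicate 1 (adjusted p = 0.12) or replicate 2 (adjusted p = 0.093), and when the spread was not moderated over genes (adjusted p = 0.1). The step to d-NSC was 1.16 ± 0.14 (adjusted p = 1.1e-04), and d-NSC remained below CNS-NSC by -1.58 ± 0.14 (adjusted p = 1.6e-05).

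Gpm6a encodes a proteolipid family membrane glycoprotein of neurites and progenitors. It lay at the dim end in the first 3 groups, with 6.26 and 5.93 in mESC, 6.37 and 5.96 in p-NSC_L and 6.05 and 6.42 in p-NSC_LF, then reached 10.40 and 10.47 in d-NSC and 13.17 and 12.90 in CNS-NSC. The first 3 groups overlapped, and their means were under the lower quartile of probe sets. Measured from that dim level, where RMA compresses differences, the rise to d-NSC was 4.20 ± 0.18 (18.4-fold, adjusted p = 1.1e-07), the 20th highest of all genes, and d-NSC was 6.06-fold below CNS-NSC (-2.60 ± 0.18, adjusted p = 2.3e-06).

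Msi1 encodes Musashi-1, an RNA-binding protein that represses translation of Numb in neural stem cells. It measured 9.50 and 9.70 in mESC, 9.85 and 9.83 in p-NSC_L, 9.77 and 9.76 in p-NSC_LF, 12.25 and 12.26 in d-NSC, and 10.61 and 10.06 in CNS-NSC. The d-NSC arrays were the highest, and every CNS-NSC array was above every array of the first 3 groups. Msi1 rose by 2.49 ± 0.16 to d-NSC (5.61-fold, adjusted p = 1.2e-06) and was 3.78-fold higher there than in CNS-NSC (1.92 ± 0.16, adjusted p = 8.2e-06).

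Counted by comparison, 3 of 10 members were called in p-NSC_L against mESC, all higher (Fabp7, Slc1a3 and Tnc). Of all genes, 13.4% were called there, 6.56% higher and 6.79% lower, and the median difference was 0.23 over members against 0.02 over all genes. That count was 2 to 4 without any 1 array, and 1, Slc1a3, with an unmoderated test. In p-NSC_LF against p-NSC_L, 3 were called, Ptprz1 and Adgrg1 higher and Slc1a3 lower, where 1.78% of all genes were (1.1% higher, 0.677% lower), and the medians were 0.04 and 0.01. That count fell to 1, Ptprz1 alone, without either p-NSC_LF replicate, and was 5 without p-NSC_L replicate 1.

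In d-NSC against p-NSC_LF, 9 of 10 were called higher, where 38.6% of all genes were called, 19.3% higher and 19.3% lower. The medians were 1.47 over members and -0.01 over all genes. With an unmoderated test 8 members were called, Prom1 being lost. In d-NSC against CNS-NSC all 10 were called, 2 higher and 8 lower, against 34.0% of all genes (17.6% higher, 16.5% lower), with medians of -1.71 and -0.01. That count was 9, Fabp7 being lost, after quantile normalization and also with an unmoderated test. In CNS-NSC against mESC, 9 were called higher, Prom1 being the exception, against 43.8% of all genes (21.7% higher, 22.1% lower), with medians of 4.60 and 0.04. These comparisons share groups, so they are given side by side and are not independent of each other. The members were chosen with earlier results of these data known, so the shares over all genes are a background and not a test.

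**Figure D2:**
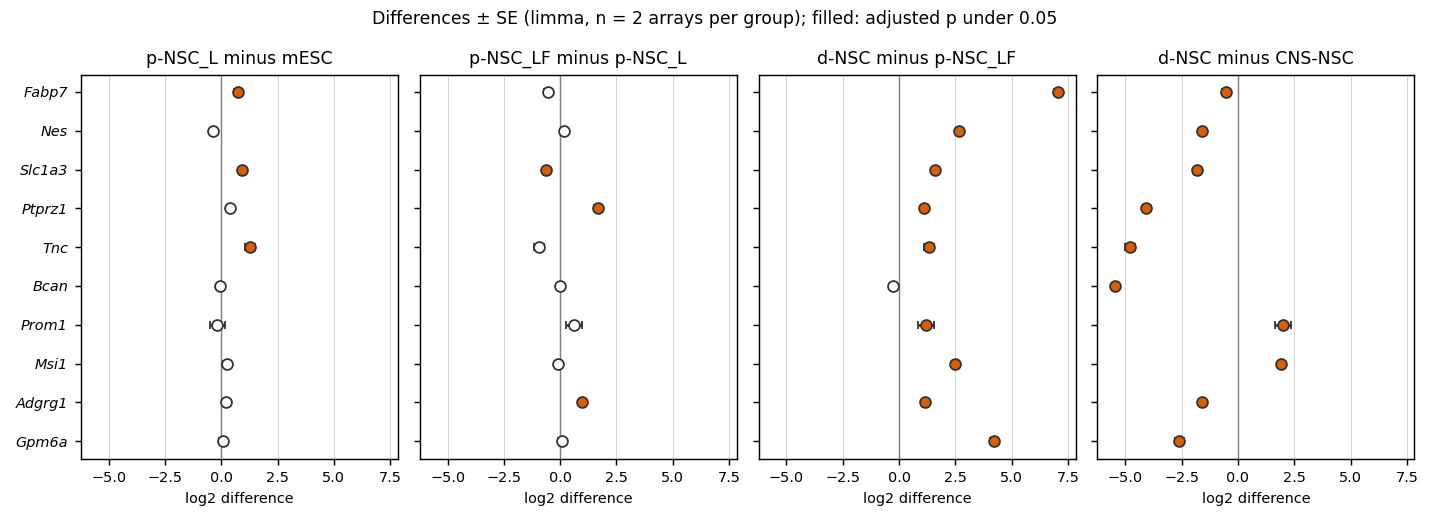
Log2 difference of each member (horizontal axis) with its SE (bars, mostly hidden by the points) in 4 comparisons, from the limma model with 2 arrays per group. Filled points were called at an adjusted p under 0.05. In d-NSC minus p-NSC_LF 9 members lie above 0, and in d-NSC minus CNS-NSC 8 lie below 0 and Prom1 and Msi1 above.

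**Figure D3:**
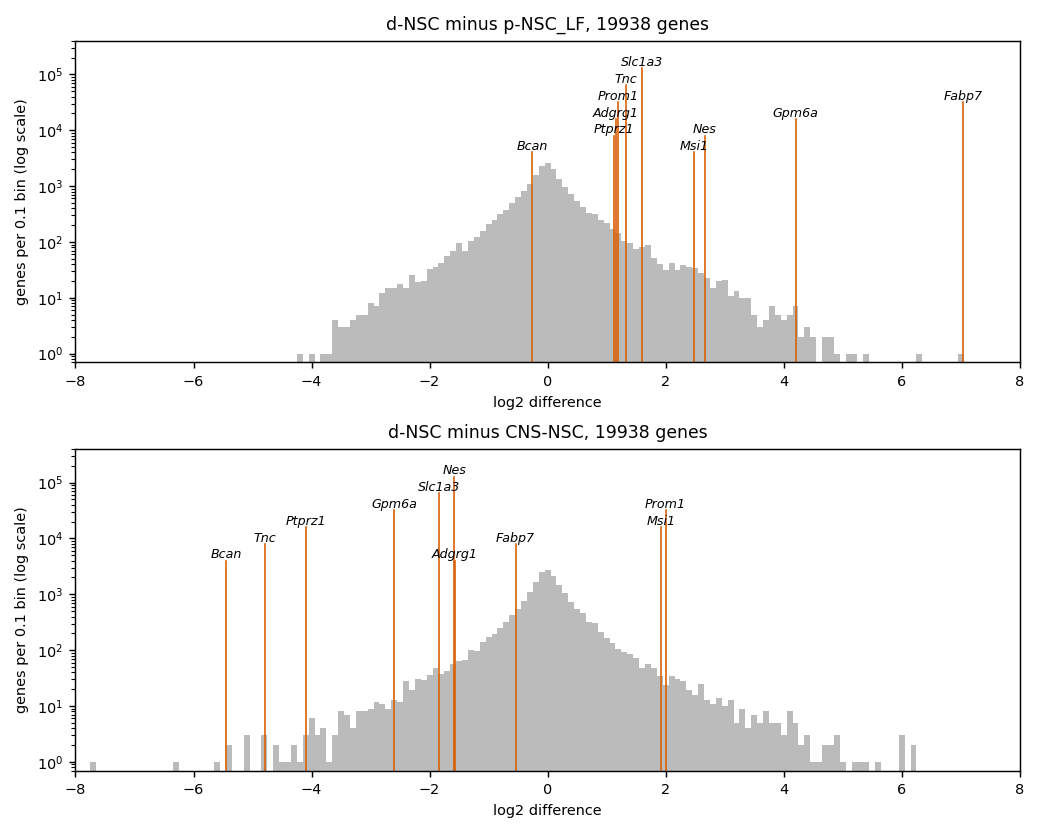
Number of genes (vertical axis, log scale) by log2 difference (horizontal axis) over all 19938 genes, in grey, with the 10 members marked as lines of staggered height. Fabp7 is at the far right in d-NSC minus p-NSC_LF (7.04), and Bcan, Tnc and Ptprz1 lie in the left tail of d-NSC minus CNS-NSC (-5.45, -4.79 and -4.09).

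Over all pairs of groups, the order was CNS-NSC, d-NSC, then the rest for Fabp7, Nes, Slc1a3, Ptprz1, Adgrg1 and Gpm6a. For Slc1a3 p-NSC_L came before p-NSC_LF, which was not separated from mESC, and for Ptprz1 and Adgrg1 p-NSC_LF came before p-NSC_L, which was not separated from mESC. The first 3 groups were not separated from their neighbours in the order for Fabp7, Nes and Gpm6a, although for Fabp7 p-NSC_L and mESC, which are not neighbours, differed. Tnc was highest in CNS-NSC with no separation between neighbours below it, although d-NSC differed from mESC and from p-NSC_LF, and p-NSC_L from mESC. Bcan was highest in CNS-NSC with no separation below. Prom1 was highest in d-NSC with no separation below, and Msi1 ran d-NSC, CNS-NSC, then the rest, CNS-NSC exceeding p-NSC_L by 0.49 (adjusted p = 0.028). The other pairs behind this order had 15.3% of all genes called in p-NSC_LF against mESC, 40.5% in d-NSC against mESC, 39.9% in d-NSC against p-NSC_L, 43.6% in CNS-NSC against p-NSC_L and 41.9% in CNS-NSC against p-NSC_LF.

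The 8 members that differed by 3 or more between CNS-NSC and mESC were spread widely along that distance in d-NSC. As a percent of the log2 distance from mESC to CNS-NSC, d-NSC stood at 93.0% for Fabp7, 62.6% for Gpm6a, 60.9% for Nes, 59.9% for Adgrg1, 50.7% for Slc1a3, 43.7% for Ptprz1, 25.7% for Tnc and -5.78% for Bcan. The 282 genes with such a difference had a median of 43.8% and quartiles of 24.7% and 68.1%. Fabp7 was thus above the upper quartile, Bcan below the lower one, and the others between them. These percentages describe the same arrays and carry no test.

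Among 31 measured relatives of the members, 11 rose and 4 fell from p-NSC_LF to d-NSC (median 0.06), with 2 falls called without d-NSC replicate 2. Of all genes, 19.3% rose and 19.3% fell at that step, which is the background for the other lists below too. Gpm6b, the closest relative of Gpm6a, rose by 3.84 ± 0.12. Of the filament genes related to Nes, Nefm rose by 2.44 ± 0.16, Ina by 2.38 ± 0.18 and Vim by 1.28 ± 0.11, while the astroglial filament Gfap differed by -0.04 ± 0.16 (adjusted p = 0.88). The fatty acid binding genes diverged: Fabp3 fell by 2.95 ± 0.14 and Fabp5 differed by 0.21 ± 0.11 (adjusted p = 0.18). Among lecticans, the proteoglycan family of Bcan, Vcan rose by 1.85 ± 0.22 and Ncan by 1.03 ± 0.12, and Acan fell by 0.49 ± 0.11, a call lost without d-NSC replicate 2 (adjusted p = 0.077). The transporters related to Slc1a3 diverged, with the glutamate transporter Slc1a2 up by 0.88 ± 0.11, the neutral amino acid transporter Slc1a4 up by 1.24 ± 0.14, and the glutamate transporter Slc1a1 down, at -1.59 ± 0.48 (adjusted p = 0.023, and 0.078 to 0.1 without any 1 of the 4 arrays). Adgrg2, a receptor of the Adgrg1 family, fell by 0.78 ± 0.14. The Ptprz1 relative Ptprg rose by 0.64 ± 0.10 and Msi2 by 0.66 ± 0.10.

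Between d-NSC and CNS-NSC, 8 of the 31 relatives were higher in d-NSC and 7 lower (median -0.06). Of all genes, 17.6% were higher there and 16.5% lower, which is the background for the other lists below too. Ncan was lower by -4.06 ± 0.12, the tenascin Tnr by -2.67 ± 0.45, Gpm6b by -2.47 ± 0.12, Fabp5 by -2.04 ± 0.11 and Slc1a2 by -1.77 ± 0.11, and the adhesion receptor Adgrg6 by -2.82 ± 0.27. Of the 8 that were higher, 7 went against their member. These were the neuronal filament genes Nefl at 3.08 ± 0.19, Nefm at 2.19 ± 0.16 and Ina at 1.79 ± 0.18, against Nes, and Fabp3 at 2.13 ± 0.14, against Fabp7. They were also Slc1a4 at 1.28 ± 0.14 and Slc1a5 at 1.03 ± 0.17, against Slc1a3, and Vcan at 0.79 ± 0.22, against Bcan, a call lost without CNS-NSC replicate 2 (0.45, adjusted p = 0.13) or either d-NSC replicate (adjusted p = 0.078 and 0.089) and with an unmoderated test (adjusted p = 0.1). Msi2, at 0.57 ± 0.10, was higher as Msi1 was. In p-NSC_L against mESC, 6.56% of all genes rose and 6.79% fell, which is the background for the other lists below too. There, 6 relatives rose and 6 fell. Among them were Fabp3 at 1.41 ± 0.14, Ina at -2.36 ± 0.18 and Nefl at -1.40 ± 0.19. These counts became 4 and 3 without mESC replicate 1, 3 and 3 without mESC replicate 2, and 6 and 3 without p-NSC_L replicate 2. In p-NSC_LF against p-NSC_L limma called 0 of 31, near the 1.78% called over all genes, and 6 had an unadjusted p under 0.05. The same step called 0 of the 18 ligands and partners, 0 of the 40 progenitor genes and 0 of the 16 regulators described next, with 4, 3 and 0 at an unadjusted p under 0.05. An unmoderated test called 0 in each of these 4 lists, and leaving out p-NSC_L replicate 2 added 1 relative, 2 partners and 1 progenitor gene.

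**Figure D4:**
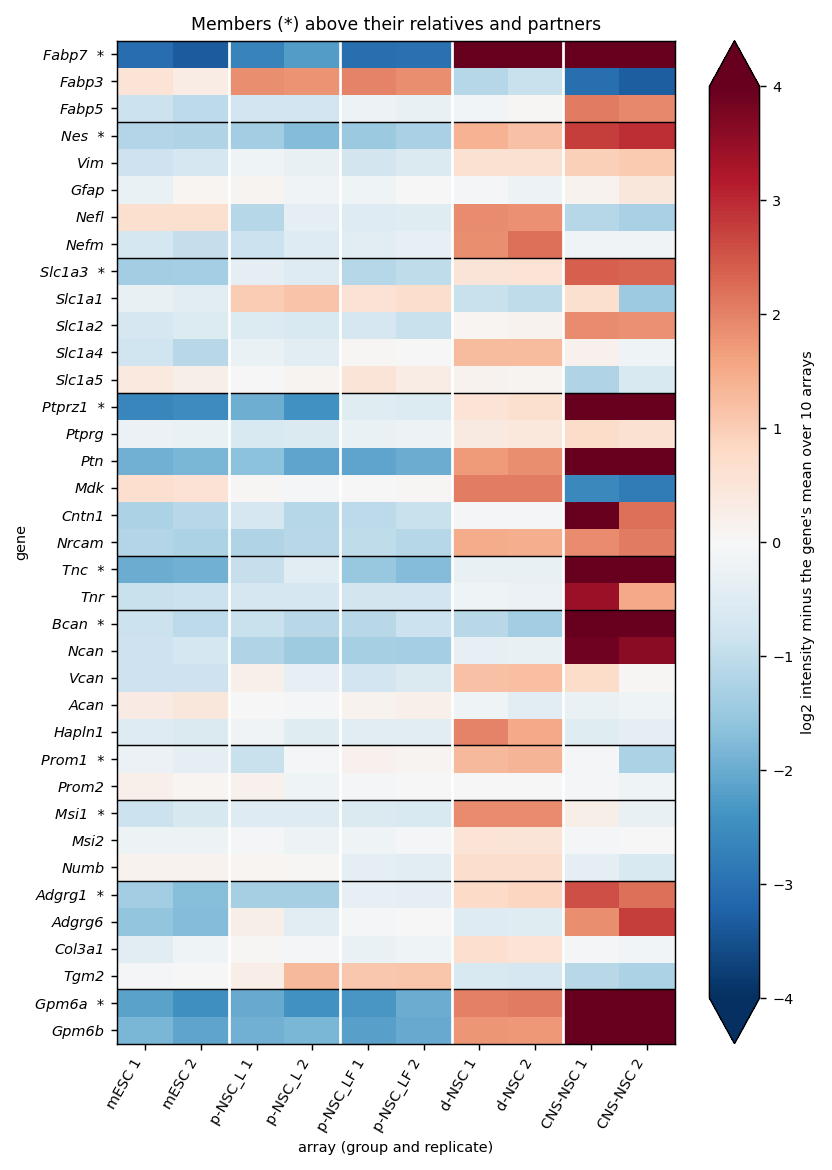
Levels of the members (marked with a star) above selected relatives, ligands and partners in the 10 arrays, each gene shown as log2 intensity minus its mean over the arrays, with colours limited to values from -4 to 4 and larger values shown at the end colour. Gpm6b is low and high in the same columns as Gpm6a, while Mdk and Hapln1 are highest in the d-NSC columns.

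Of 18 ligands and partners, 11 rose and 2 fell from p-NSC_LF to d-NSC (median 0.84), with 1 fall called when any 1 of the 4 arrays was left out. The Ptprz1 ligands Ptn and Mdk rose by 3.83 ± 0.15 and 2.01 ± 0.11, and its binding partner Nrcam by 2.54 ± 0.11. Hapln1, a link protein that fastens lecticans to hyaluronan, rose by 2.20 ± 0.16. Of the Adgrg1 ligands, Col3a1 rose by 0.83 ± 0.12 and Tgm2 fell by 1.75 ± 0.25. Numb, the mRNA that Msi1 binds, rose by 1.08 ± 0.11. Cntn1, a contactin partner of Ptprz1, differed by 0.92 ± 0.45 (adjusted p = 0.14, or 8.3e-05 with only the 2 groups in the fit).

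Against CNS-NSC, 6 of these 18 were higher in d-NSC and 7 lower (median 0.07), and both Ptprz1 ligands were called in opposite directions. Mdk measured 13.18 and 13.18 in d-NSC and 8.55 and 8.36 in CNS-NSC, a difference of 4.73 ± 0.11, whereas Ptn was lower by -2.20 ± 0.15. Hapln1 measured 8.23 and 7.76 in d-NSC and 5.74 and 5.85 in CNS-NSC, so it was higher by 2.19 ± 0.16 where Bcan was lower. Numb was higher by 1.20 ± 0.11, as was Msi1. Fbln2, a matrix protein that binds lecticans, was lower by -3.36 ± 0.10 and Cntn1 by -3.19 ± 0.45, with CNS-NSC replicates of Cntn1 at 11.53 and 9.67. In p-NSC_L against mESC 3 rose and 3 fell, changing to 1 and 1 without mESC replicate 1, 1 and 2 without mESC replicate 2 or p-NSC_L replicate 2, and 4 and 3 without p-NSC_L replicate 1.

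Of 40 other radial glia and progenitor genes, 25 rose and 4 fell from p-NSC_LF to d-NSC (median 0.76). Both the rises and the falls called were fewer when any 1 of the 4 arrays was left out. Ccnd2, a cyclin of cycling neural progenitors, rose by 5.24 ± 0.16, the adhesion gene Cdh2 (N-cadherin) by 4.69 ± 0.12, Cd24a by 2.85 ± 0.20 and the transcription factor Pax6 by 2.36 ± 0.12. Cd9 fell by 2.88 ± 0.14 and Id4, a helix-loop-helix inhibitor, by 1.25 ± 0.23. In p-NSC_L against mESC, 7 rose and 5 fell, including Id4 at 2.12 ± 0.23, Pla2g7 at 1.51 ± 0.37 (adjusted p = 0.024, and 0.074 to 0.15 without any 1 of the 4 arrays), Sox21 at 1.06 ± 0.12, Cd24a at -1.36 ± 0.20, Pax6 at -1.40 ± 0.12 and Ccnd2 at -1.16 ± 0.16. The 7 became 4 without either mESC replicate. Against CNS-NSC 9 were higher in d-NSC and 16 lower (median -0.30). Acsbg1, a fatty acyl-CoA synthetase, was lower by -3.54 ± 0.14, Cspg5 by -3.28 ± 0.14 and the neurotrophin receptor Ntrk2 by -3.13 ± 0.14. Lrp2 was higher by 3.38 ± 0.16, Gli3 by 1.84 ± 0.17 and Tnfrsf19 by 1.23 ± 0.15.

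Of 16 measured transcriptional regulators reported to act on members, 8 rose and 3 fell to d-NSC (median 0.66), with 1 or 2 falls called when any 1 of the 4 arrays was left out. Of the same 16, 4 were higher and 6 lower in d-NSC than in CNS-NSC (median -0.30). Sox11 rose by 4.28 ± 0.13, the POU factor Pou3f4 by 3.75 ± 0.15 and Nfia by 1.63 ± 0.12, while Nfib fell by 0.91 ± 0.16. Pax6, named above, is also in this list. The 3 nuclear factor I genes of the list, which act in the onset of gliogenesis, were lower in d-NSC than in CNS-NSC: Nfix by -4.01 ± 0.13, Nfib by -3.54 ± 0.16 and Nfia by -3.53 ± 0.12. Rbpj, the DNA-binding partner of Notch, was higher in d-NSC by 0.99 ± 0.10, Sox11 by 0.69 ± 0.13 and Pou3f1 by 0.56 ± 0.12. This list shares genes with the preceding one.

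For each member, the 3 genes with the most alike course were found by the root mean square difference of levels over the 10 arrays, each gene centred on its own mean, among 11265 genes. Fabp7 had no close match, with Itgb8 nearest at 1.21 and Gpm6b at 1.27, as its own rise exceeded theirs. For Gpm6a these were Gpm6b at 0.35, Ptn at 0.43 and Itgb8 at 0.47. Nes was closest to Fam181b (0.20) and Ank2 (0.21), Slc1a3 to Zeb1 (0.21), and Msi1 to Boc (0.17), Zfp618 (0.17) and Cxcr4 (0.17). Bcan was closest to Grm5 (0.23), Olig1 (0.27) and Scrg1 (0.27), Tnc to Sparcl1 (0.33) and Olig2 (0.50), and Ptprz1 to Nfia (0.69) and Ednrb (0.75). Prom1 was closest to Herpud1 (0.24) and Adgrg1 to Tcim (0.33). These distances are a description.

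Markers of other cell types moved in the same arrays. Over all genes, 17.6% were called higher in d-NSC than in CNS-NSC and 16.5% lower. Of 7 oligodendrocyte precursor markers, 4 were lower in d-NSC than in CNS-NSC and 0 higher, and 7 were lower without CNS-NSC replicate 2. Their mean level was 10.89 and 9.74 in CNS-NSC, 7.83 and 7.73 in d-NSC, and from 7.12 to 7.39 in the other 6 arrays. Olig1 measured 12.98 and 12.93 in CNS-NSC and 7.33 and 7.31 in d-NSC, and Gpr17 10.16 and 7.19 in the CNS-NSC arrays. Of 10 astroglial markers, 5 were lower in d-NSC than in CNS-NSC and 1 higher (0 higher without CNS-NSC replicate 1 or either d-NSC replicate), with means of 9.32 and 9.23 in CNS-NSC against 8.08 and 8.03 in d-NSC. In d-NSC, as in mESC, p-NSC_L and p-NSC_LF, the means of Aqp4, S100b and Gjb6 were under the lower quartile of probe sets. In CNS-NSC only Gjb6 of this list was. The mean levels of both groups were highest in CNS-NSC, as were Bcan, Tnc, Ptprz1, Fabp7, Nes, Slc1a3, Adgrg1 and Gpm6a. Some astroglial markers went otherwise. Aldh1l1 had means of 9.68 in p-NSC_L and 9.71 in p-NSC_LF against 8.50 in CNS-NSC. Gja1 had a mean of 11.08 in d-NSC against 10.40 in CNS-NSC. Other markers were higher in d-NSC than in CNS-NSC: 8 of 12 fibroblast markers (3 lower), 7 of 8 endoderm markers (0 lower), 6 of 12 neuronal markers (3 lower), 4 of 8 vascular and microglial markers (0 lower) and 11 of 12 pluripotency markers (0 lower). Mean levels in d-NSC and CNS-NSC were 8.47 and 8.41 against 7.91 and 7.95 for fibroblast markers, 8.61 and 8.61 against 7.49 and 7.56 for endoderm markers, and 9.43 and 9.44 against 9.07 and 8.60 for neuronal markers. The neuronal markers were uneven: Stmn2 had means of 11.41 in d-NSC, 6.49 in CNS-NSC and 12.36 in mESC. Map2, Syt1 and Gap43 were the 3 lower in d-NSC, with means of 10.64, 8.37 and 9.08 against 12.72, 11.22 and 11.64. Among the vascular markers, Pecam1 and Tek were higher in mESC (means of 10.36 and 8.63) than in d-NSC (7.99 and 7.47), while Cdh5 and Kdr were highest in d-NSC (8.51 and 8.77). The microglial Aif1, Csf1r, Cx3cr1 and Ptprc had means of 6.49, 6.67, 7.66 and 6.16 in d-NSC. In CNS-NSC these were 6.26, 6.62, 7.73 and 6.11. The part of cells of any of these types in the members' differences was not tested.

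At the step to d-NSC, where 19.3% of all genes rose and 19.3% fell, 11 of 12 neuronal markers rose and 1 fell. The mean level of the neuronal markers went from 7.77 and 7.81 in p-NSC_LF to 9.43 and 9.44 in d-NSC. Of 12 fibroblast markers 10 rose and 1 fell, with means of 7.46 and 7.42 before and 8.47 and 8.41 after. Of 8 endoderm markers 5 rose, from means of 7.59 and 7.63. All 12 pluripotency markers fell, from means of 12.44 and 12.36 to 9.73 and 9.73, against CNS-NSC means of 7.06 and 7.16. The part of these cells in the members' values was not tested. In p-NSC_L against mESC, 5 of 12 fibroblast and 5 of 8 endoderm markers rose, which became 1 and 1 without mESC replicate 1, 3 and 2 without mESC replicate 2, and 2 fibroblast markers without p-NSC_L replicate 2. Neural crest markers moved both ways in d-NSC against p-NSC_LF, 2 of 6 higher and 3 lower, as did 2 and 2 of 8 vascular and microglial markers.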

How the data were processed

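Trizol RNA was prepared with an Ambion whole-transcript kit, per the labels' protocols. Each of the 35556 probe sets has 1 deposited log2 intensity per array, made with RMA and Partek, per the submitters' processing notes, which give no versions. No header states the log base, and the range of the values was taken to show log2. RMA compresses differences of dim probe sets. The arrays' genome build was not given. A single gene symbol was attached to 21789 probe sets, which were used, several to 1621 and none here to 12146. Of those used, 21698 matched the RefSeq gene table. Where a gene had more than 1 probe set, as 999 did, the brightest on average was taken.

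The values were fitted unfiltered in limma 3.58.1 (R 4.3.3), with 5 residual degrees of freedom, in a script tested on simulated data. Python 3.11.15, pandas 2.3.3 and matplotlib 3.10.9 made the tables and figures. The 2 arrays per group limit precision. The 10 members and all lists were chosen with earlier results of these data known. Other genes were named by 3 rules: the 3 most alike genes per member (highest group mean at or above the median gene, predicted genes left out), up to 3 with the largest rise and fall per list, and relatives, partners or regulators of a member. Olig1 and Gpr17 were named after their values were seen. Alternatives were 2 normalizations, a filter on dim genes, other variance estimates, a replicate block, the mean of all probe sets, and each array left out. Scan dates were not used here.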

Additional observations from a re-analysis of the deposited data

How the results depend on the processing

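Of 50 member differences, 34 were called. Of these, 28 kept their call in every alternative, 6 lost it in at least 1 (Fabp7 and Tnc in p-NSC_L against mESC, Slc1a3 and Adgrg1 in p-NSC_LF against p-NSC_L, Prom1 at the step to d-NSC, and Fabp7 in d-NSC against CNS-NSC), and 0 reversed. In p-NSC_L against mESC, 2662 genes were called, 1587 with an unmoderated test, 1480 with only the 2 groups compared, and 1102 to 3290 with 1 array left out. Members called there numbered 3, and 1 with an unmoderated test. In p-NSC_LF against p-NSC_L, 355 genes were called, 89 with an unmoderated test, 99 with only the 2 groups, and 48 to 826 with 1 array left out. Members called there numbered 3, and 1 to 5 with 1 array left out. In the other 3 comparisons every count lay within 1.5 times its main value. Reversals were confined to differences that were not called. With 1 array left out, p-NSC_L minus mESC ran from -0.16 to 0.076 for Bcan, from -0.14 to 0.27 for Gpm6a and from -0.58 to 0.22 for Prom1. In p-NSC_LF minus p-NSC_L, Bcan ran from -0.12 to 0.13, and was -0.03 after quantile and -0.004 after cyclic loess normalization, and Gpm6a ran from -0.14 to 0.28. At the step to d-NSC, Gfap ran from -0.14 to 0.057, and Prom1 in CNS-NSC minus mESC from -0.97 to 0.24. The cause of these changes was not tested.

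The labels do not say that replicate numbers pair the samples, and same-numbered samples deviated together weakly (correlations of -0.11 to 0.37 between groups). With the replicate number as a block, 2958, 407, 7943, 7108 and 8992 genes and 3, 3, 9, 10 and 9 members were called in the 5 comparisons. With 2 arrays per group, differences between levels under the lower quartile of probe sets, as for Gpm6a in 3 groups, Ptprz1 in 2 and Tnc in 1 (mESC), are the least certain.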
